A study of Mus musculus with 12 samples.

Results

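Polysome-bound RNA of oocytes from Cnot6l-/- mice (KO) at metaphase II (MII) was compared with that of wild-type (WT) oocytes at metaphase I (MI), the WT stage nearest to KO MII on the WT course of maturation. The comparison rests on 4 of the 12 libraries of the series, 2 of KO MII and 2 of WT MI, and on 11667 of 23235 genes, those with a mean of at least 1 FPKM (fragments per kilobase of transcript, scaled to library size) over all 12 libraries. It asks which genes separate the knockout at its last stage from a WT oocyte at an earlier one. The remaining groups, with 2 libraries each, are the germinal vesicle (GV) and MI stages of KO, and the GV and MII stages of WT.

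All oocytes came from C57BL/6 mice at postnatal day 21. GV oocytes were taken 48 h after PMSG, a hormone that drives follicle growth, MI oocytes after 8 h in culture and MII oocytes after 16 h. KO MII and WT MI therefore differ in genotype and in hours of culture, and the effects of these cannot be told apart here. The labels say neither which part of Cnot6l was deleted nor whether the libraries of a group came from separate pools of oocytes, so p-values measure only the spread between libraries, which may be technical. Each library was built with Tn5 transposase after amplification of the cDNA.

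A fully grown oocyte is transcriptionally silent and completes meiosis on stored maternal RNA. During maturation many stored messages lose their poly(A) tails and are degraded, while others are polyadenylated in the cytoplasm and recruited to polysomes. The CCR4-NOT complex is the main cytoplasmic deadenylase, CNOT6L is one of its catalytic subunits, and adaptor proteins such as BTG4 and ZFP36L2 bring it to messages.

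The deposited FPKM of a library do not sum to a fixed total. The totals were 1040466 and 1063273 in WT MI and 1211628 and 1213953 in KO MII, and genes above 0 numbered 10487 to 10578 and 11936 to 12112. Differences are therefore given as deposited and, where this matters, after dividing each library by its median ratio to the gene means (median scaling). Depth in reads is unknown. Between the libraries of a group, Pearson's r across genes was 0.886 in WT MI and 0.920 in KO MII, and 39 and 13 genes with over 20 FPKM in 1 of the libraries were listed at 0 in its replicate. A transcript listed at 0 may thus have been present. All 12 oocyte markers examined were above 0 in every group.

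Cnot6l itself was not called between KO MII and WT MI. Its FPKM was 68.5 and 47.9 in WT MI and 16.4 and 16.0 in KO MII, so the libraries did not overlap and signal over the gene remained in the knockout. The log2 difference, on the scale log2(FPKM + 1) used throughout, was -1.76 (SE 0.57, limma adjusted p = 0.0895).

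Each library was placed on a scale where the WT GV mean is 0 and the WT MII mean is 1. The KO MII libraries lay at 0.370 and 0.382 and the WT MI libraries at 0.522 and 0.519. KO MII was thus nearer to WT MI than to WT GV or WT MII, and its distance from WT MI exceeded that between replicates. With median scaling the gap narrowed, to 0.333 and 0.343 for KO MII against 0.395 and 0.400 for WT MI. The KO MI libraries lay at 0.106 and 0.101 as deposited. Some gene groups differed from this general order. For 20 maternal transcripts known to be translationally activated on maturation, KO MII stood at 0.795 and 0.710, beyond WT MI at 0.512 and 0.520. KO MI was beyond WT MI too, at 0.680 and 0.699. With median scaling the gap between KO MII and WT MI shrank, to 0.653 and 0.648 against 0.598 and 0.597. On that scale KO MI was short of WT MI, at 0.424 and 0.446. For 11 genes of the zona pellucida and subcortical maternal complex, KO MII stood at 0.00 and -0.01 as deposited, and WT MI at 0.08 and 0.10. With median scaling these became 0.257 and 0.258 against 0.221 and 0.265, overlapping.

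**Figure D1:**
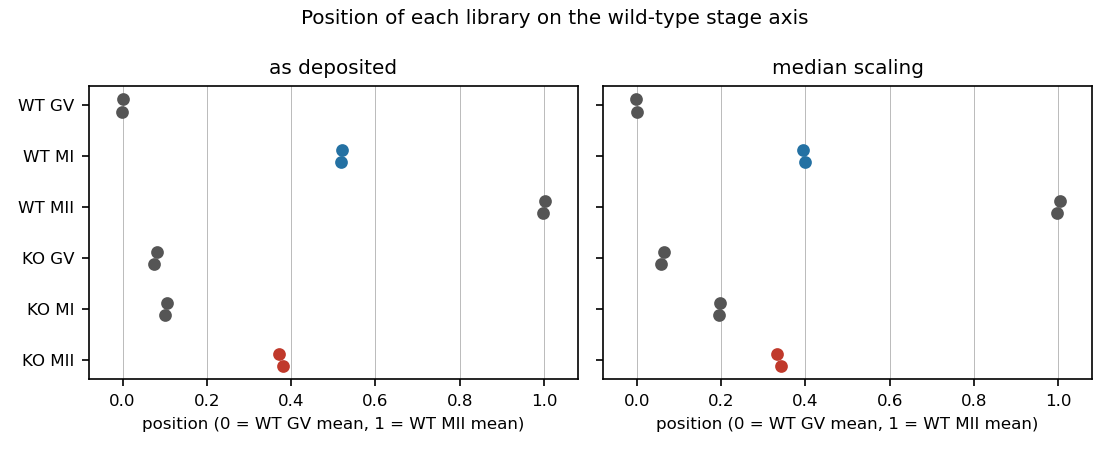
Position of each of the 12 libraries on the WT stage axis (WT GV mean at 0, WT MII mean at 1) over 11667 genes, as deposited (left) and with median scaling (right). Each point is 1 library. KO MII (red) lies at 0.370 and 0.382 as deposited, short of WT MI (blue) at 0.522 and 0.519, and the gap is smaller with median scaling.

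Position uses only 1 axis, and other measures of closeness ranked the groups differently. The root mean square log2 difference between KO MII and WT MI libraries was 1.39, close to the 1.38 for WT GV and smaller than the 1.83 for WT MII. With median scaling WT GV was nearer, at 1.32 against 1.44 for WT MI. Pearson's r across genes was highest with WT MI among the WT groups as deposited, 0.870 against 0.860 for WT GV and 0.817 for WT MII. With median scaling both were 0.860. By each of these distances KO MI was the nearest group, with a root mean square difference of 1.16 and an r of 0.921. Within KO MII the 2 libraries differed by 0.995, and within WT MI by 1.25. The description of WT MI as the nearest WT stage thus holds on the stage axis and, as deposited, by correlation, but not by root mean square distance.

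Between KO MII and WT MI, 727 genes were higher in KO MII (6.23% of tested genes) and 135 were lower (1.16%), together 7.39% (limma, adjusted p below 0.05, 2-sided). These counts stand beside 28.6% for KO MII against WT MII, 16.0% for KO MII against WT GV, 7.35% for KO MII against KO MI and 22.1% for WT MII against WT MI, comparisons that share libraries. With median scaling these shares were 24.9%, 13.3%, 1.51% and 24.5%, in the same order. For KO MI against WT MI the share was 28.4% as deposited and 4.71% with median scaling. The excess of higher genes depended on the scale. The median log2 difference of all tested genes was 0.43 as deposited and 0.10 with median scaling, and 69.9% and 55.4% of genes were above 0. With median scaling 269 genes were higher (2.31%) and 311 lower (2.67%), together 4.97%. On both scales 268 genes were higher and 132 lower, and no gene was called in opposite directions. A further 459 genes were higher only as deposited and 179 lower only with median scaling.

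Among the called genes the differences were often large. Of the 727 higher genes 284 differed by over 2 on the log2 scale, and of the 135 lower genes 48 did. Of the higher genes 85 were listed at 0 in both WT MI libraries, and 39 of these were listed at 0 in both WT MII libraries as well. Of the lower genes 14 were at 0 in both KO MII libraries. Calls were made more often at high expression: 1.55% of genes with a mean of 1 to 5 FPKM were called, against 49.1% of the 163 genes with at least 1000. The libraries of both groups did not overlap for 5996 genes (51.4%), beside 7.39% called. A fit of the KO MII and WT MI libraries alone called no gene in either direction, although an unadjusted p under 0.05 was reached by 2125 higher and 427 lower genes, and its lowest adjusted p was 0.0776. The calls therefore rest on the spread pooled over all 6 groups. Without KO MII replicate 1 the counts were 181 higher and 59 lower, and without replicate 2 they were 172 and 48. They were 524 and 87 without WT MI replicate 1, 563 and 85 without replicate 2, 444 and 95 or 438 and 91 without KO MI replicate 1 or 2, and 1170 and 203 or 1169 and 203 without WT MII replicate 1 or 2.

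**Figure D2:**
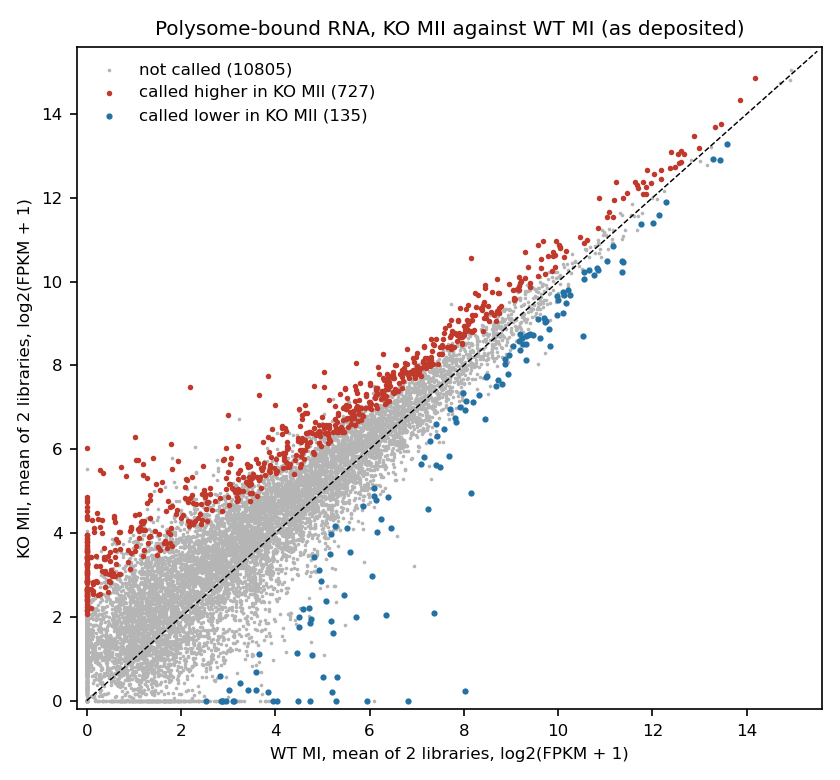
Mean log2(FPKM + 1) of 2 WT MI libraries (x) against 2 KO MII libraries (y), as deposited; each point is 1 of 11667 tested genes and the dashed line marks equality. The 727 genes called higher in KO MII (red) and the 135 called lower (blue) lie on both sides, with some at 0 in 1 of the groups.

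Several abundant maternal genes that were far lower in WT MII than in WT MI were at nearly the same level in KO MII and WT MI as deposited. Zp3, which encodes a zona pellucida glycoprotein and sperm receptor, had 9431 and 9977 FPKM in WT MI, 9657 and 9463 in KO MII and 3035 and 2992 in WT MII. The groups KO MII and WT MI overlapped, and their log2 difference was -0.02 (95% interval -0.10 to 0.06), where WT MII minus WT MI was -1.69. Ooep, a subunit of the subcortical maternal complex, had 2093 and 1858 FPKM in WT MI and 2167 and 2297 in KO MII, a difference of 0.18 (-0.02 to 0.37), against 210.3 and 238.9 in WT MII. Tle6, of the same complex, had 7175 and 7332 FPKM in WT MI and 7451 and 7997 in KO MII, a difference of 0.09 (-0.02 to 0.20). These intervals leave room only for small differences on the deposited scale.

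Some single genes of the spindle, of DNA replication and of mitochondria were not called as deposited either, with wider intervals. Tacc3, which stabilises spindle microtubules, had 597.2 and 696.7 FPKM in WT MI, 585.4 and 521.1 in KO MII and 31.2 and 32.3 in WT MII, and KO MII differed from WT MI by -0.22 (95% interval -0.48 to 0.03). Mcm5, a subunit of the replicative helicase, had 44.0 and 40.6 FPKM in WT MI, 33.4 and 44.2 in KO MII, and 0.56 and 0.54 in WT MII. Its difference was -0.13 (-0.80 to 0.54). Dscc1, which serves in sister chromatid cohesion, and Mrpl55, of the mitochondrial ribosome, were listed at 0 in both WT MII libraries and differed between KO MII and WT MI by 0.13 (-0.54 to 0.80) and 0.49 (-0.26 to 1.23). For Cdk1, the kinase that drives entry into M phase, the difference was -0.37 (-1.005 to 0.27). A p above the threshold does not show equal levels. Of all tested genes 1424 (12.2%) had an interval within 1 log2 of 0, and among the 1902 genes with a mean of at least 100 FPKM the number was 1053 (55.4%). With median scaling Zp3 (-0.42), Tle6 (-0.31, of opposite sign to the deposited value), Tacc3 (-0.62) and Npm2 (-0.83), which encodes a histone chaperone of the egg, were called lower in KO MII. Ooep, Mcm5, Dscc1, Mrpl55 and Cdk1 were not called on either scale.

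**Figure D3:**
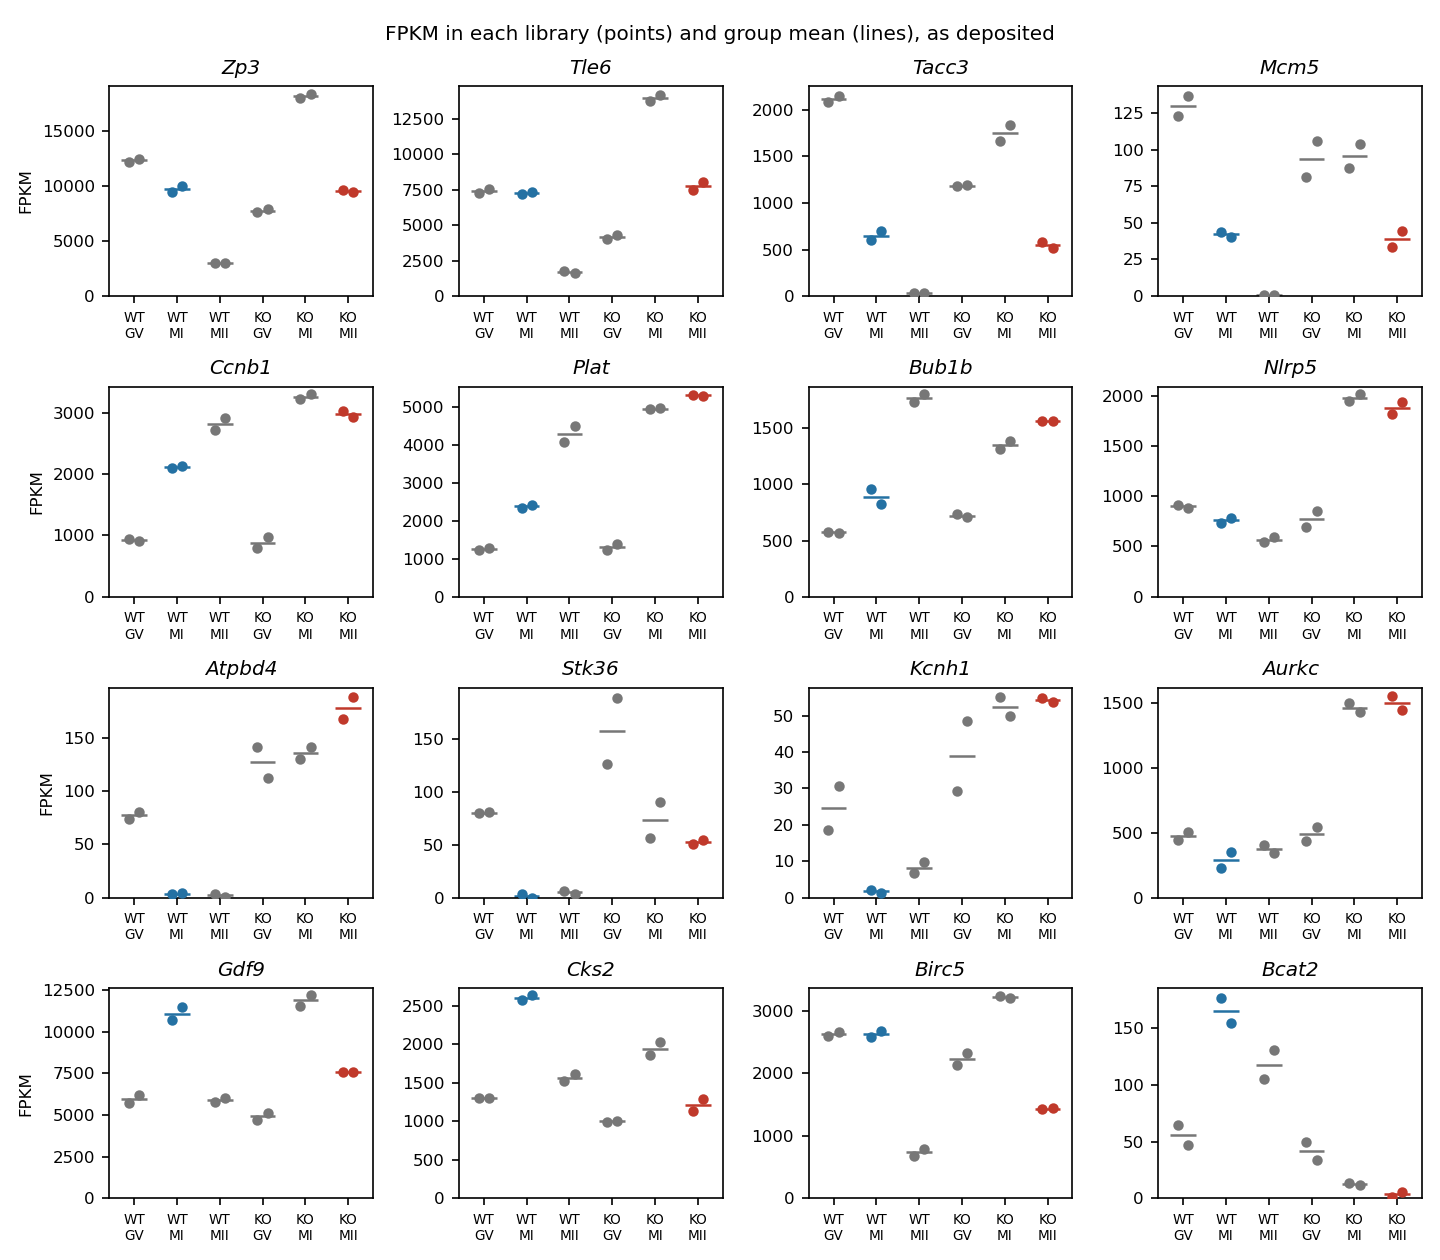
FPKM as deposited of 16 genes in each of the 12 libraries (points) with the mean of each group (lines); KO MII is red and WT MI is blue. In the upper row KO MII and WT MI are at similar levels, while Atpbd4 is near 0 in WT MI and at 168 and 188 FPKM in KO MII, and Bcat2 is at 1.60 and 5.98 FPKM in KO MII against 177 and 155 in WT MI.

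The 12 largest increases called on both scales, with predicted genes, clones and symbols of more than 1 locus left out, were of genes at or near 0 in WT MI. A clone left out, 7420700N18Rik, was listed at 0 in WT MI and had 62.2 and 67.4 FPKM in KO MII. Atpbd4, a gene of the diphthamide pathway that modifies an elongation factor, had 2.91 and 4.39 FPKM in WT MI and 168 and 188 in KO MII, and 74.0 and 80.4 in WT GV. Its log2 difference was 5.28 (SE 0.49, limma adjusted p = 0.000216). Kcnh1, which encodes a voltage-gated potassium channel, had 2.15 and 1.24 FPKM in WT MI against 54.9 and 53.8 in KO MII, a difference of 4.38 (SE 0.43, limma adjusted p = 0.000334). In KO GV it was at 29.4 and 48.6.

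Stk36, a kinase of Hedgehog signalling and cilia, was at 3.26 and 0 FPKM in WT MI, 50.5 and 54.0 in KO MII, and 79.7 and 80.9 in WT GV. Mgmt, the repair enzyme for alkylated guanine, was at 1.36 and 1.51 FPKM in WT MI, 40.7 and 37.6 in KO MII, and 71.8 and 79.1 in WT GV. In both genes KO MII lay between WT MI and WT GV. Zglp1, a zinc finger regulator of germ cells, was at 0 and 4.16 FPKM in WT MI, 55.7 and 43.8 in KO MII and 58.5 and 44.4 in WT GV, where KO MII and WT GV overlapped as deposited. Pglyrp1, a peptidoglycan recognition protein, was at 1.59 and 3.57 FPKM in WT MI and 77.5 and 61.2 in KO MII, above its 21.1 and 20.7 in WT GV.

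Rnpep, an aminopeptidase, Extl1, a glycosyltransferase of heparan sulfate synthesis, and Pgap2, which remodels GPI anchors, were listed at 0 in both WT MI libraries, so no fold is given. Rnpep had 32.4 and 22.2 FPKM in KO MII, Extl1 23.9 and 27.5 and Pgap2 14.8 and 32.1. The 3 genes were not alike in WT MII. Extl1 was listed at 0 in both WT MII libraries. Pgap2 had 7.36 and 22.48 FPKM there, overlapping KO MII. KO MII minus WT MII of Pgap2 was 0.71 as deposited and -0.01 with median scaling. For Rnpep it was 1.27 and 0.55. The rest of the 12 largest increases were Cyp39a1 (4.20), an oxysterol hydroxylase, Top3a (4.18), a topoisomerase, and Slc35b2 (4.10), a transporter for sulfation, each with its log2 difference. Each of the 12 was called on both scales and in 21 to 23 of the 24 fits tried.

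Among abundant genes the smallest adjusted p-values went with smaller differences. Ube2t, a ubiquitin-conjugating enzyme of the Fanconi anaemia pathway, had 1786 and 1944 FPKM in WT MI and 4157 and 3962 in KO MII, a log2 difference of 1.12 (SE 0.07, limma adjusted p = 2.78e-05). Dppa3, which encodes the maternal factor STELLA, had 18125 and 19234 FPKM in WT MI and 30232 and 29355 in KO MII, a difference of 0.67. Bcl2l10, an oocyte member of the BCL2 family, differed by 0.47 as deposited and by 0.08 with median scaling, where it was not called. Ube2t and Dppa3 were called on both scales.

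The 12 largest decreases were chosen by the same rule. Among those left out were A930015D03Rik and 1700037H04Rik, clones listed at 0 in both KO MII libraries, and Atp6v0c-ps2, whose log2 difference was -7.80 as deposited and which was not called with median scaling. Atp6v0c-ps2 is named here after its values were seen. Bcat2, the mitochondrial branched-chain aminotransferase, had 177 and 155 FPKM in WT MI, 1.60 and 5.98 in KO MII, and 65.1 and 47.1 in WT GV. Its log2 difference was -5.29 (SE 0.45, limma adjusted p = 0.000127), and the KO MI libraries were already low at 13.5 and 11.7. Hormad1, which encodes a protein of the meiotic chromosome axis, had 39.8 and 37.9 FPKM in WT MI, 0 and 1.22 in KO MII and 1.57 and 1.78 in KO MI. Every KO library was below every WT library for Hormad1.

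Some of these genes were at 0 in both KO MII libraries. Nupr1, a stress-induced nuclear protein, had 50.3 and 73.2 FPKM in WT MI and was listed at 0 in both KO MII libraries, although KO MI had 35.9 and 33.6. Agbl2, a carboxypeptidase acting on tubulin, had 21.2 and 31.2 FPKM in WT MI, and Npl, an enzyme of sialic acid breakdown, 16.5 and 12.5. Both were listed at 0 in KO MII. In WT MII Agbl2 had 18.14 and 18.95 FPKM and Npl 5.71 and 0. Dcpp1, a secreted protein gene on chromosome 17 (24017843 to 24019820), had 93.7 and 132 FPKM in WT MI and was listed at 0 in KO MII and KO GV. Its neighbour and near-identical copy Dcpp2 (24035689 to 24037754) had 65.2 and 101 FPKM in WT MI and 2.64 and 3.73 in KO MII. How reads were shared between these copies is not given in the sources used here, so their separate values are uncertain.

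The remaining large decreases were of Bfsp1 (-3.73), a lens intermediate filament gene, Bex4 (-4.44), Susd4 (-3.63), and the cumulus genes Ptx3 and Gja1 described with their cell type. WT MII was low as well for Bfsp1, listed at 0 in both libraries, and for Bex4, at 0 and 2.03 FPKM. For Susd4 it was at 23.4 and 20.8 FPKM, for Nupr1 at 47.0 and 65.2 and for Bcat2 at 106 and 131. Susd4 was the least stable of the 12 and was called in 14 of the 24 fits; the most stable were called in 23. Of the abundant genes, Ggct, which encodes an enzyme of glutathione turnover, had 1500 and 1467 FPKM in WT MI, 427 and 408 in KO MII, and 651 and 653 in KO MI. Its difference was -1.83 (SE 0.10, limma adjusted p = 2.78e-05). WT MII was at 1426 and 1389 FPKM as deposited.

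Of 19 CCR4-NOT subunits and other deadenylases tested, 1 was higher and none lower (5.26%, beside 7.39% of all tested genes), with a median log2 difference of 0.55 beside 0.43 for all tested genes. At an unadjusted p under 0.05, 5 were higher and none lower. With median scaling limma called none, with 2 higher at an unadjusted p under 0.05. The called gene was Angel2, of the CCR4-type nuclease family, with 158.9 and 123.3 FPKM in WT MI and 295.8 and 248.1 in KO MII, a difference of 0.95 (SE 0.19, limma adjusted p = 0.0175). It was called in 16 of the 24 fits. The catalytic subunits Cnot7 and Cnot8 differed by 0.22 (95% interval -0.10 to 0.54) and 0.07 (-0.29 to 0.43). Of 12 adaptors tested, Btg4 was the 1 gene called (8.33%), higher in KO MII, with 6379 and 6704 FPKM in WT MI and 8494 and 8474 in KO MII. Its difference of 0.38 as deposited became -0.02 with median scaling and was not called there.

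Of 37 genes for storage of maternal RNA and poly(A) regulation, 4 were higher and none lower (median 0.48). The share called was 10.8%, beside 7.39% of all tested genes. Zar1, an RNA-binding protein needed for the passage from egg to embryo, had 5227 and 5598 FPKM in WT MI, 8584 and 8967 in KO MII, and 14747 and 14323 in WT GV. Its difference was 0.70 (SE 0.06, limma adjusted p = 9.98e-05), and KO MII stood between WT MI and WT GV. Paip1, a partner of the poly(A)-binding protein, differed by 1.002, Igf2bp3, an RNA-stabilising protein, by 1.37, and Dazl, a translational activator of germ cells, by 0.65. With median scaling Zar1 (0.30) and Paip1 (0.60) were still called, and 1 gene of the list was lower. That was 8.11% called, beside 4.97% of all tested genes on that scale. Of 33 genes of decapping, the exosome and terminal uridylation, Patl2 (1.07) and Dcp1a (0.75) were higher. Lsm2 (-1.04), a subunit of the LSM ring, was lower, so 9.09% of these genes were called. With median scaling none of these 33 was called higher by limma (4 at an unadjusted p under 0.05) and 3 were lower. The share called was again 9.09%, beside 4.97% of all tested genes on that scale.

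Among 11 genes of the zona pellucida and subcortical maternal complex, Nlrp5, Zp1, Zp2 and Padi6 were higher and none was lower, with a median of 0.09. That was 36.4% of the list, beside 7.39% of all tested genes and 49.1% of genes with at least 1000 FPKM. Neither this list nor the others were matched for expression. Nlrp5, a scaffold of the complex also known as Mater, had 735.9 and 782.2 FPKM in WT MI, 1819 and 1935 in KO MII and 912.1 and 885.7 in WT GV. Its difference was 1.30 (SE 0.10, limma adjusted p = 9.24e-05), and 0.91 with median scaling, where it was the 1 gene of the group still called higher. Zp2 and Zp1, further zona glycoproteins, differed by 0.65 and 0.59. Padi6, an enzyme-like protein of the cytoplasmic lattices, differed by 0.36 as deposited and by -0.04 with median scaling. On that scale 4 genes of the group were lower, so the direction of the group as a whole depends on the scaling. The share called there was 45.5%, beside 4.97% of all tested genes and 47.9% of genes with at least 1000 FPKM.

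Of 37 oocyte-specific factors 13 were higher and 3 lower (median 0.30), and with median scaling 3 were higher and 9 lower. As deposited 43.2% of the list was called, beside 7.39% of all tested genes, without matching for expression. With median scaling the share was 32.4%, beside 4.97%. Nlrp14, a maternal-effect gene, had 3075 and 3260 FPKM in WT MI and 5325 and 5383 in KO MII, a difference of 0.76 (SE 0.06, limma adjusted p = 0.000100). It was at 1157 and 1078 in WT MII. Tcl1, a cofactor of the AKT kinase, differed by 0.59. Among the lower genes was Gdf9, the growth factor by which the oocyte acts on the cumulus. It had 10680 and 11484 FPKM in WT MI, 7600 in each KO MII library, and 5750 and 6182 in WT GV, a difference of -0.54 (SE 0.06, limma adjusted p = 0.000460) and of -0.94 with median scaling. Its close relative and partner Bmp15 had 2205 and 2105 FPKM in WT MI and 2392 and 2540 in KO MII, a difference of 0.19 (95% interval 0.04 to 0.35) that was not called (limma adjusted p = 0.117). Whether Gdf9 and Bmp15 differ in response was not tested.

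Of 20 maternal transcripts that are activated on maturation, 8 were higher and none lower (40% called, beside 7.39% of all tested genes, median 0.50). With median scaling 3 were higher and 2 lower (25%, beside 4.97% of all tested genes). Several are known to carry the cytoplasmic polyadenylation element, whose core is written TTTTAT, near the end of the 3' untranslated region. To show what was counted, the copy nearest the end of the annotated transcript (GENCODE M1, build NCBIM37, the same as mm9) is printed for 2 higher and 2 lower genes, with the motif in capitals, at chr2:118467289-118467318, chr1:194334012-194334041, chr11:53251356-53251385 and chr3:66029699-66029728, all on the plus strand:
Bub1b: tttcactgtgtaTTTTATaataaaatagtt
Kcnh1: tattatggtaataaactaTTTTATatgtga
Gdf9: agagtgctgtggTTTTATgtgacggaagaa
Ptx3: ctactgtaaataaaatgTTTTATaaagcta

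The motif began 27, 12, 39 and 13 bases from the transcript's end. In Kcnh1 and Ptx3 it lay after the last poly(A) signal (AATAAA or ATTAAA), which began 21 and 22 bases from the end. In Bub1b and Gdf9 it lay before that signal, which began at 21 and 23 bases. The motif was present in genes of either direction. On the transcript strand, TTTTAT occurred within the last 300 bases in 34.5% of the higher genes, 14.8% of the lower genes and 28.2% of all tested genes with an annotated transcript. With median scaling the shares were 34.5% and 21.8%. The last 300 bases of the lower genes also held less A and T, a median of 54.7% against 57.7% for all and 59.7% for the higher genes, and the part of base composition in the motif counts was not tested. The AU-rich element TATTTAT was found in 10.3% of higher, 7.81% of lower and 9.33% of all genes. A match is not evidence of a functional site.

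Plat, which encodes tissue plasminogen activator and is a textbook case of activation by this element, had 2350 and 2435 FPKM in WT MI, 5336 and 5288 in KO MII, and 4090 and 4504 in WT MII. Its difference was 1.15 (SE 0.07, limma adjusted p = 2.78e-05), and KO MII differed from WT MII by 0.31 as deposited and by -0.46 with median scaling, so its side of WT MII depends on the scale. Bub1b, the spindle checkpoint kinase BUBR1, had 959.0 and 821.8 FPKM in WT MI, 1565 and 1563 in KO MII and 1729 and 1804 in WT MII, a difference of 0.82 (SE 0.09, limma adjusted p = 0.000609). Here KO MII lay between WT MI and WT MII. Ccnb1, cyclin B1, had 2096 and 2122 FPKM in WT MI, 3025 and 2934 in KO MII, and 2709 and 2911 in WT MII. Its difference was 0.50 as deposited, and 0.10 with median scaling, where it was not called. Tex19.1, a germline factor, differed by 1.47. Mos, the kinase that holds the egg in metaphase II, was at 2219 and 2281 FPKM in WT MI and 1977 and 2205 in KO MII, a difference of -0.11 (95% interval -0.28 to 0.06), and was called lower with median scaling (-0.51).

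Of 50 genes of meiotic cell cycle control, 2 were higher and 2 lower, with a median of 0.08 that lay below the 0.43 of all genes. The share called, 8%, was close to the 7.39% of all tested genes. With median scaling limma called none higher (1 at an unadjusted p under 0.05) and 7 lower (14%, beside 4.97% of all). The higher genes were Ccnb1 and Cdc27, a subunit of the anaphase-promoting complex that was called in 11 of the 24 fits. Cks2, a small partner of CDK1 needed for meiosis, had 2570 and 2645 FPKM in WT MI, 1133 and 1293 in KO MII, and 1308 in each WT GV library. Its difference was -1.11 (SE 0.08, limma adjusted p = 6.17e-05). KO MII minus WT GV was -0.11 as deposited and 0.32 with median scaling, so its side of WT GV depends on the scale. Mapk3, the kinase ERK1, had 841.9 and 941.9 FPKM in WT MI and 442.8 and 498.9 in KO MII, a difference of -0.92.

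Members of the chromosomal passenger complex were called in opposite directions. Among 70 genes of the spindle, kinetochore and cohesin 6 were higher and 3 lower (12.9% called, beside 7.39% of all tested genes, median 0.51). With median scaling 2 were higher and 7 lower (12.9%, beside 4.97% of all tested genes). Aurkc, the germ cell Aurora kinase of that complex, had 226.9 and 349.8 FPKM in WT MI, 1557 and 1448 in KO MII and 1501 and 1433 in KO MI. Its difference was 2.41 (SE 0.19, limma adjusted p = 9.24e-05). Birc5, which encodes survivin of the same complex, had 2582 and 2672 FPKM in WT MI and 1432 and 1438 in KO MII, a difference of -0.87 (SE 0.08, limma adjusted p = 0.000178). In KO MI Birc5 was at 3236 and 3208 and in WT MII at 682.9 and 793.4. KO MI minus WT MI was 0.29 as deposited and -0.73 with median scaling. Nusap1, a microtubule-bundling protein, was lower as well, with 299.9 and 282.6 FPKM in WT MI and 140.2 and 138.4 in KO MII. Pcnt, a scaffold of the spindle poles, was higher by 0.97. Aurkc, Birc5 and Nusap1 kept their direction and their call with median scaling.

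Of 54 DNA replication genes 2 were called, both higher (3.70%, beside 7.39% of all tested genes). Cdc7, a kinase that licenses origins to fire, had 12.9 and 7.72 FPKM in WT MI and 56.1 and 39.99 in KO MII, a difference of 2.14. Of 43 genes of DNA methylation and chromatin, 5 were higher (11.6%), with Setdb1 (1.43), a histone methyltransferase, Hat1 (1.02), a histone acetyltransferase, and Tet3 (0.86), the maternal methylcytosine oxidase, among them. With median scaling 1 gene of each group was still called (1.85% and 2.33%, beside 4.97% of all tested genes). Where a list had none lower by limma, the number lower at an unadjusted p under 0.05 was 0 for adaptors, replication, chromatin and ubiquitin-conjugating genes, 1 for the zona, maturation, proteasome and spliceosome lists, and 2 for storage and mitochondrial ribosomal genes.

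Genes of protein synthesis, protein turnover and mitochondria had medians below the 0.43 of all genes as deposited. This was not particular to them. The median was 0.23 in genes with a mean of 100 to 1000 FPKM and 0.15 in those above. The replication (0.33) and oocyte-specific (0.30) lists were also below 0.43, and the storage (0.48) and spindle (0.51) lists above it. The part of expression level was not tested. Of 86 ribosomal protein genes 13 were higher and 4 lower (19.8% called, beside 7.39% of all tested genes, median 0.19). With median scaling 6 were higher and 12 lower (20.9%, beside 4.97% of all tested genes). Rps19 had 210.5 and 196.9 FPKM in WT MI, 458.9 and 549.1 in KO MII, and 731.0 and 748.8 in WT GV, a difference of 1.30 (SE 0.13, limma adjusted p = 0.000348). Rpl23 differed by 2.04 and Rps21 by 1.29. Ribosomal protein genes have many processed pseudogenes, so reads may be shared with these copies and the values are uncertain. Of 62 translation factors 5 were higher and 2 lower (11.3% called), and with median scaling 1 and 3 (6.45%, beside 4.97%). Among the higher was Eif5b, which joins the ribosomal subunits, at 38.6 and 39.1 FPKM in WT MI and 97.1 and 102 in KO MII.

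Of 83 nuclear genes of oxidative phosphorylation 8 were higher and 4 lower (14.5% called, beside 7.39% of all tested genes, median 0.08). With median scaling 2 were higher and 9 lower (13.3%, beside 4.97% of all tested genes). Ndufb4, a subunit of complex I, had 335.1 and 365.4 FPKM in WT MI, 967.1 and 873.0 in KO MII, and 1157 and 1155 in WT GV, a difference of 1.39 (SE 0.19, limma adjusted p = 0.00222). Sdhb, of complex II, had 78.2 and 75.6 FPKM in WT MI and 201.9 and 212.4 in KO MII. WT GV had 456.6 and 479.7 FPKM of Sdhb, and in both genes KO MII lay between WT MI and WT GV as deposited. With median scaling KO MII minus WT GV of Ndufb4 was 0.10. Of 76 mitochondrial ribosomal genes 4 were higher (5.26%, beside 6.23% of all tested genes). With median scaling 1 of them was higher and 2 were lower (3.95%, beside 4.97%). Mrps10 was listed at 0 in both WT MI and both WT MII libraries and had 18.2 and 9.90 FPKM in KO MII. Of 44 proteasome genes 5 were higher and none lower (11.4% called), led by Psmb5, a catalytic subunit (1.196). With median scaling 1 was higher and 1 lower (4.55%, beside 4.97%). Of 64 spliceosome genes 4 were higher (6.25%, beside 6.23% of all tested genes), and 1 with median scaling (1.56%, beside 2.31%). Of 36 chaperones 3 were higher and 2 lower (13.9% called), and with median scaling 1 and 5 (16.7%, beside 4.97%). The prefoldin subunits Pfdn4 (0.76) and Pfdn5 (-0.57) were called in opposite directions on both scales.

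**Figure D4:**
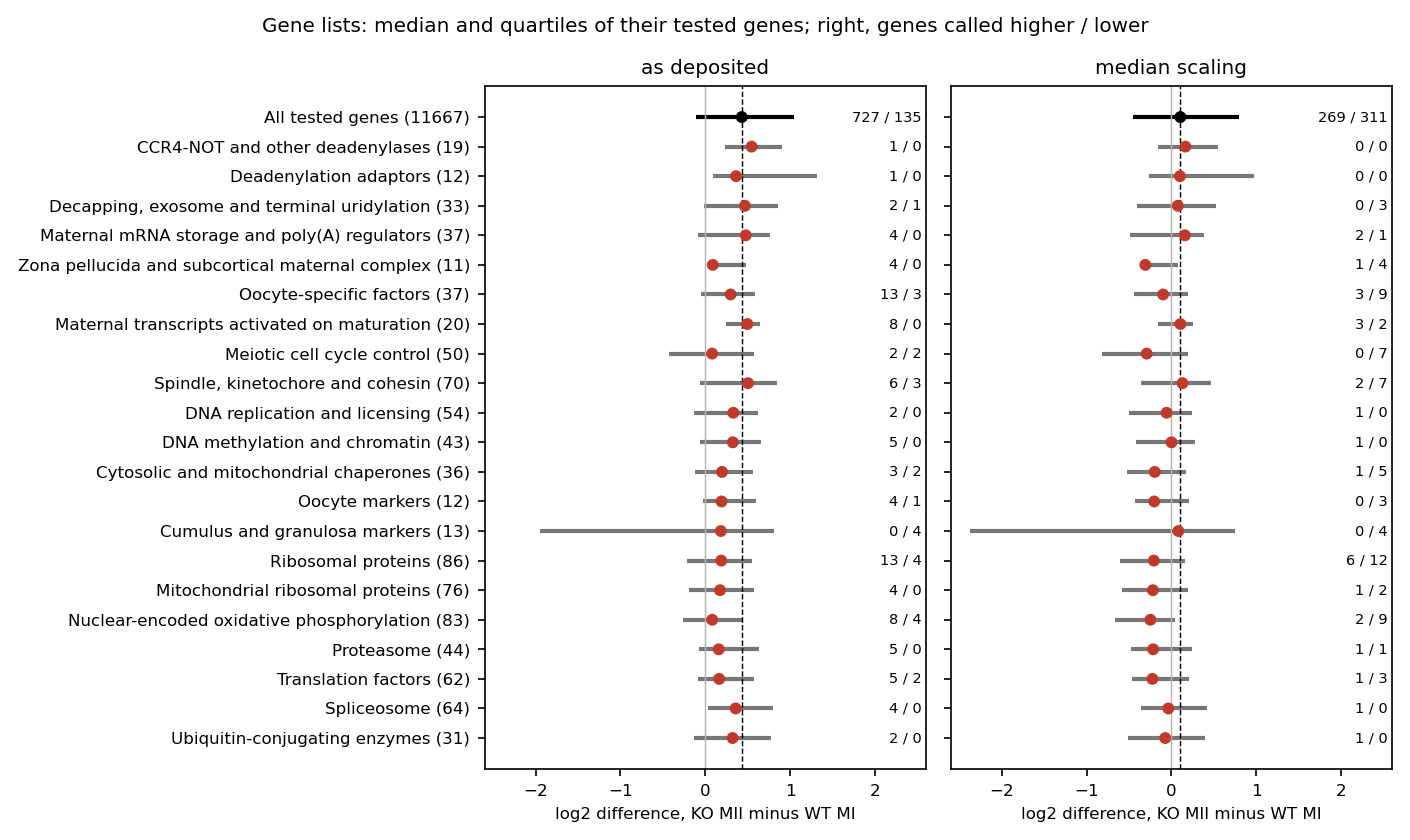
Median (point) and quartiles (bar) of the log2 difference KO MII minus WT MI for each gene list with at least 10 tested genes, with the number tested in brackets and the genes called higher and lower at the right. The dashed line marks the median of all tested genes, 0.43 as deposited (left) and 0.10 with median scaling (right).

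Some transcripts of the cumulus cells that surround the oocyte were lower in KO MII. Of 13 cumulus and granulosa markers tested limma called 4 lower and none higher, on both scales, and at an unadjusted p under 0.05 these were 5 and 1 as deposited. That was 30.8% called, beside 7.39% of all tested genes as deposited and 4.97% with median scaling. The median log2 difference of the 13 was above 0, at 0.19 as deposited and 0.08 with median scaling, so the list as a whole was not lower. Ptx3, a matrix protein of the expanding cumulus, had 32.1 and 40.2 FPKM in WT MI, 0.35 and 0 in KO MII, and was listed at 0 in GV oocytes of both genotypes. Tnfaip6, another matrix gene, had 7.88 and 5.79 FPKM in WT MI and was listed at 0 in KO MII. Gja1, the gap junction protein connexin 43, had 15.2 and 15.9 FPKM in WT MI and was listed at 0 in KO MII. Inha, the inhibin alpha subunit, had 22.7 and 37.6 FPKM in WT MI and 4.46 and 12.7 in KO MII, but 200.9 and 238.8 in WT GV, and was called in 10 of the 24 fits.

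Over all 18 markers of this list the summed FPKM was 133.6 to 152.7 in WT MI, 87.4 to 128.6 in KO MII, 158.5 to 196.3 in KO MI and 63.4 to 74.6 in WT MII. In WT MI 14 of the 18 were above 0 in a library and in KO MII 10 were. Foxl2, which defines granulosa cells, and Cd44 were listed at 0 in both groups. Fewer cumulus cells and less RNA per cell cannot be told apart in bulk samples, and the part of such cells in other differences was not tested. Of 18 markers of theca, stroma, endothelium and blood 4 were tested and none was called by limma, nor at an unadjusted p under 0.05.

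Genes were also grouped by their course in WT oocytes, called between WT GV and WT MII in a fit of those 4 libraries alone. None of them enters the KO MII or WT MI mean, but their spread enters the pooled variance behind the calls, so the grouping and the calls are not independent. Of 3352 genes that fell from WT GV to WT MII, 280 were higher in KO MII than in WT MI (8.35%, beside 6.23% of all tested genes) and 63 lower (1.88%, beside 1.16%). Of 497 genes that rose, 90 were higher (18.1%) and 25 lower (5.03%). Of the 7818 genes called neither way, 4.57% were higher and 0.60% lower. As deposited, both the falling and the rising genes thus had more calls of either direction than the rest. Calls were more frequent at high expression, these classes were not matched for it, and its part in the shares was not tested. The median log2 differences of the falling and the rising genes, 0.34 and 0.25, were below the 0.49 of the remaining genes. With median scaling, where the grouping was made anew, 81 of 2021 falling genes were higher and 74 lower, and 58 of 1527 rising genes were higher and 134 lower (8.78%, beside 2.67% of all). Higher calls thus outnumbered lower ones among rising genes as deposited and not with median scaling. This was not particular to rising genes. As deposited there were 727 higher and 135 lower among all tested genes, and 357 and 47 among genes called neither way. With median scaling there were 269 and 311 among all tested genes.

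The called genes were compared with their side in GV oocytes. Of the 135 genes lower in KO MII than in WT MI, 87 (64.4%) had both KO GV libraries below both WT GV libraries, beside 24.2% of all tested genes. Of the 727 higher genes, 237 (32.6%) had both KO GV libraries above both WT GV libraries, beside 17.9%. With median scaling the shares were 56.3% beside 20.2% and 47.6% beside 22.4%. As deposited, 171 (23.5%) of the higher genes had both KO GV libraries below both WT GV libraries, and 12 (8.89%) of the lower genes had them above. The GV libraries enter neither mean of the comparison, but their spread is part of its pooled variance. In 62 of the higher genes every KO library was above every WT library at all 3 stages, as in 167 of all tested genes. In 7 of the lower genes every KO library was below every WT library, as in 9 of all. All 862 called genes already had KO MII apart from WT MI, as did 40.3% (higher) and 11.1% (lower) of tested genes. These counts are therefore partly fixed by the choice of genes.

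The share of lower calls and the median difference changed with transcript length. The share of higher calls did not follow it, at 6.83%, 6.13%, 6.02% and 6.68% from the shortest class to the longest. The lower genes had a median annotated transcript length of 1624.5 bases, the higher genes 2917 and all tested genes 2833, with 94.8%, 96.0% and 95.1% of genes matched. In genes with transcripts under 1000 bases 3.85% were lower and 6.83% higher, and in those of 4000 bases and over 0.317% and 6.68%. The median log2 difference went from 0.08 in the shortest class to 0.24, 0.43 and 0.66 in the longest. With median scaling the slope stayed, from -0.20 to 0.35, and the lower genes had a median length of 1681. The lower genes were also richer in G and C, at a median of 52.6% against 50.03% for all genes. Expression differed too, with a median over the 4 libraries of 139 FPKM in the lower genes, 53.7 in the higher and 11.1 in all. Whether length, base composition or expression accounts for any call was not tested.

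**Figure D5:**
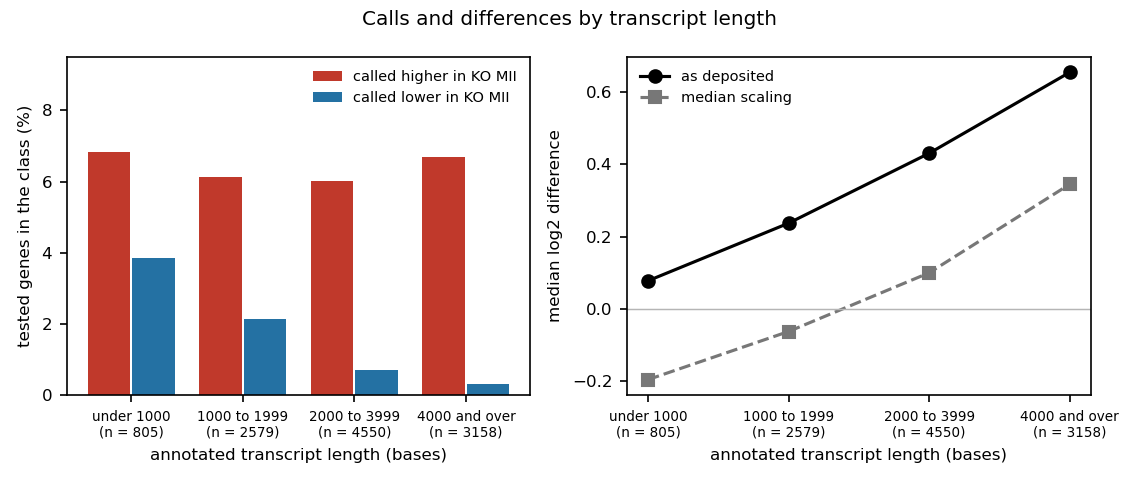
Share of tested genes called higher (red) or lower (blue) in KO MII as deposited, in 4 classes of annotated transcript length (left), and the median log2 difference KO MII minus WT MI in the same classes on both scales (right). The share of lower genes falls from 3.85% to 0.317% with length, and the median difference goes from 0.08 to 0.66 as deposited.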

How the data were processed

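Polysome-bound RNA was sequenced in 12 libraries, 2 for each of 6 groups. The authors deposited FPKM values per gene in 1 table of all libraries, the table used here, and in 1 table per library. Per the submitters' processing notes, the tools were Cufflinks 2.2.1, Bowtie2 2.1.0, TopHat2 2.0.11 and CASAVA 1.8, with genome build mm9; the gene annotation, any spike-in and the number of reads are not stated there. The analysis used log2(FPKM + 1) of 11667 genes whose mean was at least 1 FPKM. R 4.3.3 with limma 3.58.1 was used to fit 6 group means to all 12 libraries with a variance trend (residual df 6, prior df 4.27). Genes with a 2-sided Benjamini-Hochberg adjusted p below 0.05 over all tested genes were called. Median scaling used genes with a mean of at least 10 FPKM. The alternatives were other scalings, pseudocounts and filters, fits on fewer groups, other variance settings, a replicate block and leaving out each replicate.

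Named genes are the 12 largest increases and decreases called on both scales without overlap of libraries and with at least 5 FPKM in the higher group (predicted genes, clones, small RNAs and symbols with 2 loci skipped), up to 4 called members of each gene list, fixed genes, genes at 0 in 1 group, and those of smallest adjusted p; the text gives a part. The comparison, lists and fixed genes were chosen with earlier results of these data known, and none is independent evidence. Transcript lengths and ends come from the longest coding transcript with a 3' untranslated region in GENCODE M1, and 94.1% of symbols were found there. Coordinates are those of the table, 1-based, in mm9.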

Additional observations from a re-analysis of the deposited data

How the results depend on the processing

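The counts of 727 higher and 135 lower genes depended on the scale and on single libraries. They were 380 higher with FPKM rescaled to a fixed total (TPM), 269 higher and 311 lower with median scaling, 271 and 230 with quantile normalization, and 470 and 76 without a variance trend. A fit of the KO MII and WT MI libraries alone gave 0 and 0, and 1164 genes were higher without the WT MII libraries. Leaving out each of the 12 libraries in turn gave 172 to 1170 higher and 48 to 203 lower genes. With median scaling, alternatives chosen after seeing the data, leaving out a KO MII or WT MI library gave 62, 62, 223 and 230 higher genes. A pseudocount of 0.1, no filter, a filter at 5 FPKM and weights per group moved neither count by over 1.5 times.

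Replicate numbers did not pair the samples: the deviations of same-numbered KO MII and WT MI libraries had r = -0.02, and no label ties them. With the number as a replicate block, 642 genes were higher and 130 lower, and none of the 89 genes examined singly changed its call.

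The mean position of KO MII was 0.338 with median scaling, 0.389 with TPM, 0.427 with quantile normalization and 0.313 with a pseudocount of 0.1; that of WT MI was 0.397, 0.479, 0.447 and 0.493, and 0.526 without a filter. KO MII lay below WT MI in each. With median scaling the root mean square distance from KO MII was 1.32 to WT GV, 1.44 to WT MI, 1.88 to WT MII, 1.39 to KO GV and 0.988 to KO MI. Of genes falling in WT, 81 were higher with median scaling, 125 with TPM, 60 with quantile normalization and 186 without a filter, where 38 were lower. Of genes rising in WT, 58 were higher with median scaling, and 134, 65 and 79 were lower with median scaling, TPM and quantile normalization.

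Of the 89 genes examined singly 75 were called. The sign of 3 turned with median scaling: Btg4 (-0.0227), Padi6 (-0.0359) and Tle6 (-0.31). When a KO MII or WT MI library was also left out, the turned values were -0.0205, -0.0249 and -0.0497 for Btg4, -0.0987, -0.0419 and -0.0300 for Padi6 and -0.36 for Tle6. Of the 75 calls, 24 and 25 were lost without KO MII replicate 1 and 2, 17 with median scaling and 33 without a variance trend. The cause was not tested. Depth in reads is unknown, so no limit from counting can be given.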

Other observations

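The genes lower in KO MII were unevenly spread over the genome. Of the 135, 16 (11.9%) lay on chromosome 17, which holds 5.03% of tested genes, and 14 of these lay between 20 and 50 Mb (mm9). There 3.85% of 364 tested genes were lower, beside 1.07% of tested genes on all other chromosomes. In the same interval 16 of the 364 genes were higher. On the whole of chromosome 17 the share higher was 4.60%, below the 6.23% of all tested genes. With median scaling chromosome 17 held 26 of the 311 lower genes (8.36%). Chromosomes 7 and 2, with 7.62% and 7.72% of tested genes, held 26 and 27. The interval of 20 to 50 Mb was chosen after its values were seen, and no test was made. Besides Dcpp1 and Dcpp2 it holds Lsm2, H2-Aa and Cdc5l, of which the last 2 are named after their values were seen. Lsm2 was also low in WT MII, at 159 and 140 FPKM against 167 and 145 in KO MII. H2-Aa was not, at 231 and 245 FPKM in WT MII against 19.6 and 46.6 in KO MII. Cdc5l, a splicing factor gene (45528839 to 45570656), had 8.87 and 10.7 FPKM in WT MI, and 0 and 0.42 in KO MII; its KO GV libraries had 1.67 and 1.15 against 9.62 and 11.2 in WT GV. H2-Aa, a class II histocompatibility gene, had 241 and 338 FPKM in WT MI and 175.8 and 179.9 in WT GV, and every KO library was below every WT library for both genes. Of the 7 lower genes with that pattern, Dcpp1, Dcpp2, H2-Aa and Cdc5l lie on chromosome 17.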
